A study of Xenopus laevis with 15 samples.

Results

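The enzymes described here are those of glycolysis and the citric acid cycle in Xenobots, the small self-moving bodies that form from explanted ectoderm of Xenopus laevis embryos. Members were chosen by name: a gene belonged if its symbol, without the ending .L or .S, was 1 of 37 enzyme names. Of these, 34 names had a row in the deposited count table and 3 (pfkl, pdk2 and fh) had none, which gave 61 member rows of 42638 genes. Xenopus laevis is an allotetraploid, and .L and .S name the copies (homeologs) of a gene on its long and short subgenomes. Both copies were present for 26 names. A filter on low counts kept 60 member rows of 24052 genes for testing, and left out hk2.L, which had a mean of 0.352 CPM (counts per 1000000 on TMM-scaled library sizes).

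All Xenobots were wild type, came from animal cap tissue, are labelled epidermal and were left to heal and grow for 7 days at 14 °C. RNA of 50 Xenobots was pooled for a library. The control group (Ctrl) was taken before any stimulus. The extract groups had received an extract of homogenised blastula embryos, at 10 µL per 14 mL of medium, and were taken directly afterwards (0 h) or 4 h later. The ATP groups had received 250 µM adenosine triphosphate and were taken at the same times. Each of the 5 groups had 3 libraries. No unstimulated group at 4 h was analysed here, so elapsed time and stimulus cannot be told apart between 0 h and 4 h. Nor was a group that was handled without a stimulus, so stimulus and handling cannot be told apart in comparisons with Ctrl. The labels do not say whether pools of a group came from separate batches of embryos, so p-values measure the spread between these pools only.

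Glycolysis splits glucose into pyruvate in the cytosol, with a small yield of ATP. Lactate dehydrogenase converts pyruvate and lactate into each other, and the pyruvate dehydrogenase complex carries pyruvate into the mitochondrion's citric acid cycle as acetyl-CoA. Pyruvate dehydrogenase kinases switch that complex off by phosphorylation. Early frog embryos live on yolk platelets laid down in the egg, which supply amino acids and lipid, and carry glycogen besides.

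The total expected count per library was 12583039 to 20325075, of which ribosomal RNA genes took 20.1% to 43.3%, and the members held 0.624% to 1.09% of the remainder. Epidermal markers had a summed level of 5567 to 8136 CPM per library over 18 rows. Neural markers summed to 78.7 to 102 CPM over 17 rows, mostly from syt1.L with a mean of 73.1 CPM. The next highest neural row was otx2.L, at a mean of 5.99 CPM. Blood markers summed to 0.729 to 2.98 CPM over 14 rows, none of which passed the filter. Muscle markers differed widely between libraries, with sums of 27.6 to 279 CPM in Ctrl and 7.86 to 28.5 CPM in extract 0 h. They were 8.98 to 47.3 CPM in extract 4 h, 10.2 to 113 CPM in ATP 0 h and 162 to 364 CPM in ATP 4 h. In pooled tissue, fewer cells of a type and less RNA per cell cannot be told apart.

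Some libraries stood apart in the members as a whole. Across the 60 members, the median deviation from the mean over all libraries was 0.25 on the log2 scale in ATP 0 h replicate 2 and -0.23 in ATP 4 h replicate 1. Of the 60 members, 18 had their highest level of all libraries in ATP 0 h replicate 2, and 20 their lowest in ATP 4 h replicate 1. Ctrl replicates 2 and 3 lay at 0.19 and -0.16, so libraries of 1 group differed among themselves. Replicate 2 was also above 0 in ATP 4 h, at 0.17, but below 0 in extract 0 h and extract 4 h, at -0.08 and -0.14. Over all genes, same-numbered libraries deviated together in 5 of 10 pairs of groups, and the main fit took no account of replicate number. The same median over all 24052 genes stayed between -0.00 and 0.02 in every library, but TMM scaling on these genes holds it near 0. It therefore does not show how far other sets of genes moved. The pooled SD within groups of the library median over the members was 0.14. Because of this spread, medians over the members are also given below without the libraries that moved them most.

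**Figure D1:**
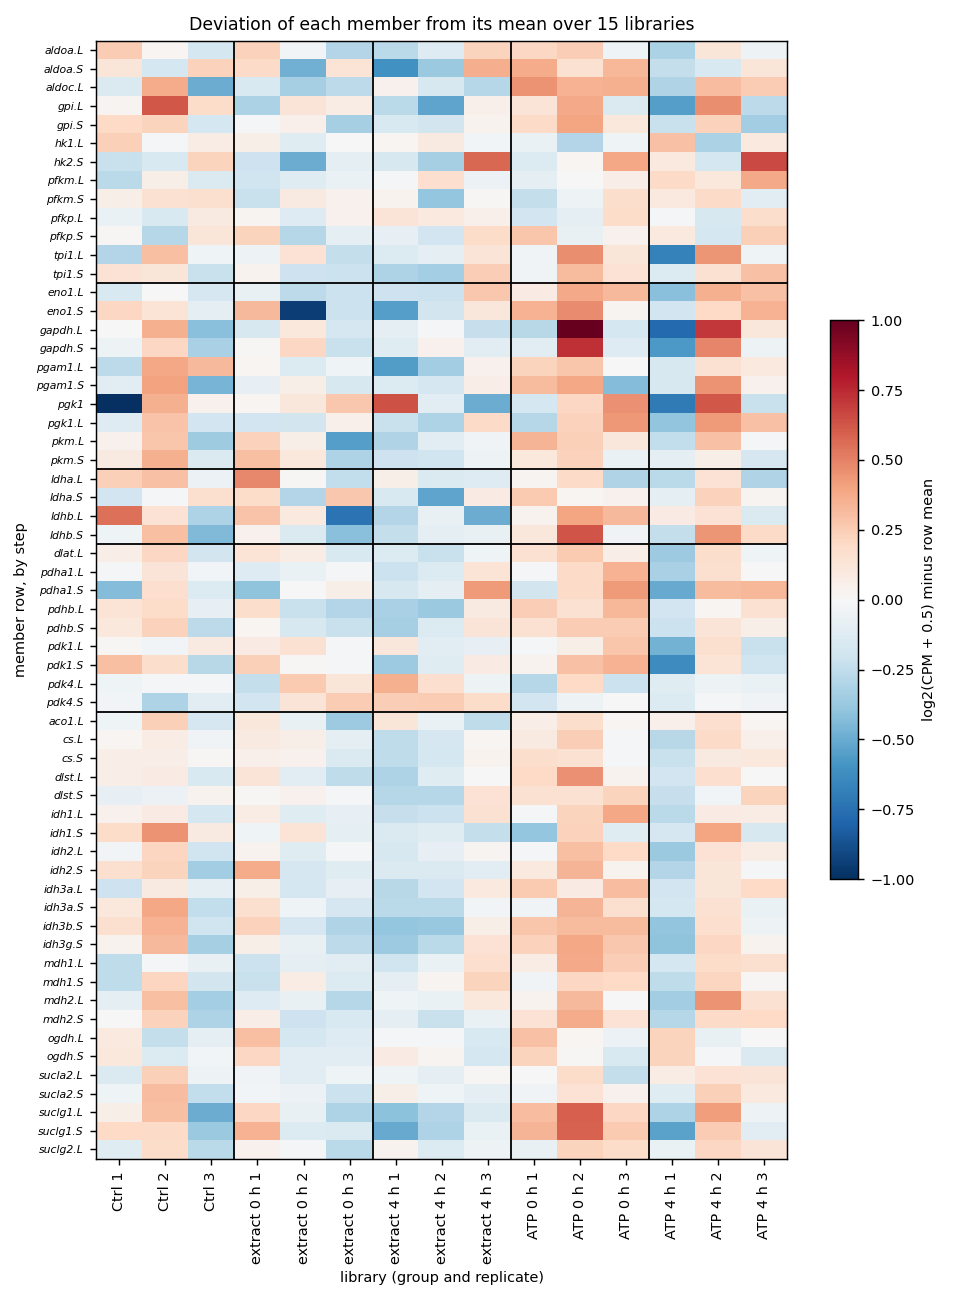
Deviation of log2(CPM + 0.5) of each of the 60 tested members (rows, by step) from its mean over 15 libraries (columns, by group and replicate), with colours saturating at 1 in either direction. Whole columns differ within a group: ATP 0 h replicate 2 is mostly above the mean and ATP 4 h replicate 1 mostly below it.

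Among the enzymes that trap and split the hexose, phosphofructokinase sets the committed step, and its platelet-type gene pfkp.L had the highest CPM of the 14 rows of this step. CPM is not corrected for transcript length, so levels of different genes are not ranked here beyond naming the row with most counts in a step. The level of pfkp.L was 210.3, 198 and 234 CPM in Ctrl. It was 225, 202 and 227 CPM in extract 0 h and 241, 236 and 228 CPM in extract 4 h. After ATP it was 193, 207 and 250.5 CPM at 0 h and 218, 197 and 249 CPM at 4 h. Its highest library was 1.30-fold above its lowest, the narrowest span of the 59 tested members with reads in every library, and each stimulated group except extract 4 h straddled the Ctrl mean. The other rows of the step, for hexokinases (hk1, hk2), glucose-6-phosphate isomerase (gpi), muscle-type phosphofructokinase (pfkm), aldolases (aldoa, aldoc) and triose-phosphate isomerase (tpi1), had means of 0.352 to 27.9 CPM.

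From triose to pyruvate, glyceraldehyde-3-phosphate dehydrogenase, the step that reduces NAD+, carried most counts. The level of gapdh.S was 1043, 1244 and 861 CPM in Ctrl, 1089, 1244 and 926 CPM in extract 0 h, and 995, 1110.0 and 1003 CPM in extract 4 h. It was 1002, 1796 and 989 CPM in ATP 0 h and 726, 1517 and 1042 CPM in ATP 4 h. The extract groups lay inside the range of Ctrl, whereas ATP 0 h replicate 2 and ATP 4 h replicate 2 were far above their own groups. The transcript is widely used as a reference in expression assays, and here its highest library was 2.47-fold above its lowest. Its homeolog gapdh.L spanned 3.53-fold, from 45.9 to 162 CPM, with the same lowest and highest libraries, and this was the widest span of the 59 members. The remaining rows, for phosphoglycerate kinase (pgk1), phosphoglycerate mutase (pgam1), enolase (eno1) and pyruvate kinase (pkm), had means of 0.551 to 27.8 CPM.

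Lactate dehydrogenase is a tetramer of A and B subunits. In mammals the B subunit prevails in oxidative tissue such as heart and the A subunit in tissue that makes lactate. In the Xenobots nearly all its counts belonged to 1 gene, ldhb.S. Its level was 1304, 1655 and 989 CPM in Ctrl, 1381, 1214 and 1006 CPM in extract 0 h, and 1139, 1256 and 1278 CPM in extract 4 h. It was 1448, 2076 and 1310.4 CPM in ATP 0 h and 1141, 1826 and 1533 CPM in ATP 4 h. All groups overlapped Ctrl, whose own libraries spanned the whole range of both extract groups. The ldhb rows held 99.2% to 99.6% of the ldha and ldhb counts in each library. Together gapdh.S and ldhb.S held 40.3% to 51.7% of all member counts per library.

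**Figure D2:**
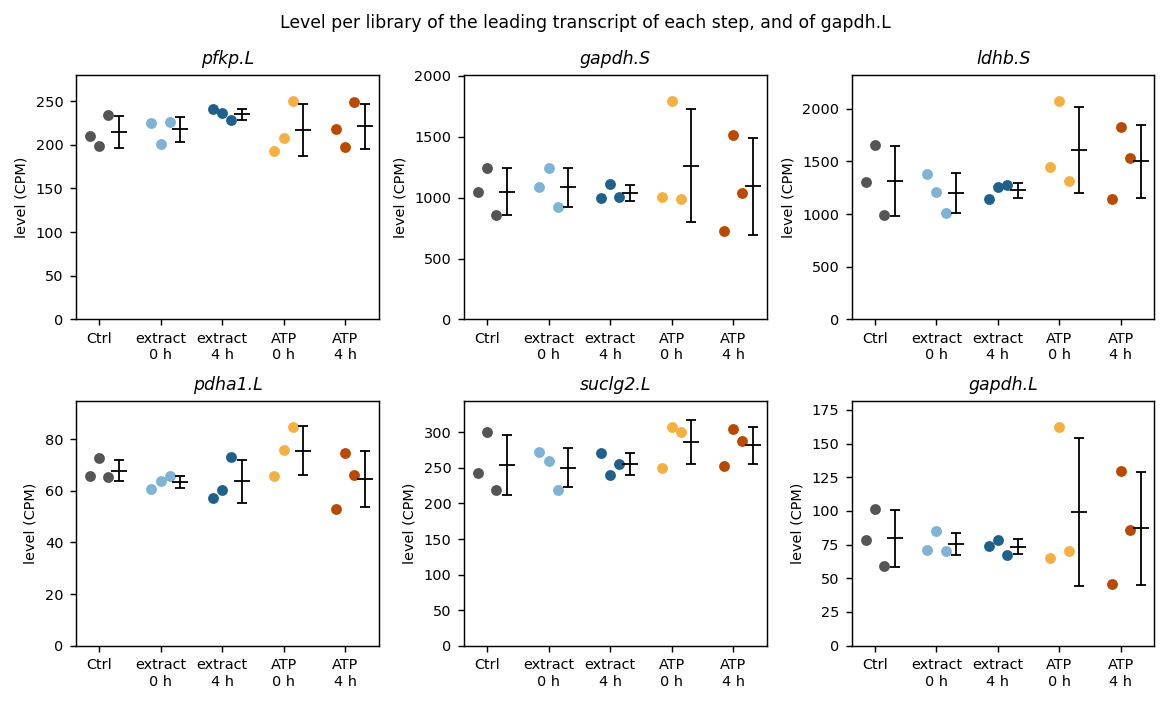
Level in CPM of the row with the highest mean in each step, and of gapdh.L, in every library (points, 3 per group) with the group mean and SD (bar). For gapdh.S, gapdh.L and ldhb.S the libraries inside each ATP group lie far apart, while pfkp.L stays between 193 and 250.5 CPM.

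At the entry to the mitochondrion, pdha1.L, which encodes the catalytic E1 alpha subunit, had the highest mean of 9 rows. Its level was 65.7, 72.7 and 65.2 CPM in Ctrl, 60.9, 63.7 and 65.8 CPM in extract 0 h and 57.2, 60.4 and 73.3 CPM in extract 4 h. It was 65.7, 75.8 and 84.7 CPM in ATP 0 h and 52.9, 74.6 and 66.2 CPM in ATP 4 h, so every stimulated group overlapped Ctrl. The other rows of this step had means of 5.99 to 66.9 CPM. Between the kinases that are members and had rows, pdk4 held 72.2% of the pdk1 and pdk4 counts on average, and at least 66.1% in every library. A further kinase gene outside the members, pdk3, had means of 11.2 CPM for pdk3.L and 10.4 CPM for pdk3.S, and is not in this share.

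All 24 rows of the cycle and its cytosolic counterparts passed the filter, with means of 12.9 to 265 CPM. The highest mean was that of suclg2.L, the GTP-forming beta subunit of succinyl-CoA synthetase. Its level was 242, 300.3 and 219 CPM in Ctrl, 272, 259.6 and 219 CPM in extract 0 h, and 271, 239.6 and 255 CPM in extract 4 h. It was 251, 307 and 299.9 CPM in ATP 0 h and 253, 304 and 288 CPM in ATP 4 h. Groups overlapped throughout. The suclg2 row held 82.0% to 85.0% of the counts of suclg2 and sucla2, the ATP-forming counterpart. The cytosolic isocitrate dehydrogenase idh1 held 47.8% to 52.8% of the idh1 and idh2 counts, and cytosolic malate dehydrogenase mdh1 held 48.0% to 55.4% of the mdh1 and mdh2 counts. These shares use counts without correction for length, so they describe how the reads divided rather than how many molecules each gene gave.

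Homeologs divided their counts very unevenly for some of these enzymes and nearly evenly for others. In 11 of 26 pairs 1 copy held over 75% of the counts in every library. The .L copy held 94.2% of the idh2 counts, 92.3% of the pfkp counts and 92.2% of the idh1 counts on average. For gapdh it held 6.85% and for ldhb 0.505%. In 9 pairs .L was above 50% in every library, in 11 pairs .S was, and in 6 pairs the leading copy differed between libraries, as in pkm with 47.2% to 55.7% from .L. Reads that fit both copies are divided by estimation, so shares of copies with like sequence are uncertain. The range over libraries differed between pairs: cs.L held 45.0% to 48.2% of the citrate synthase counts, suclg1.L 33.0% to 39.2% of the suclg1 counts and dlst.L 51.2% to 60.4% of the dlst counts.

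**Figure D3:**
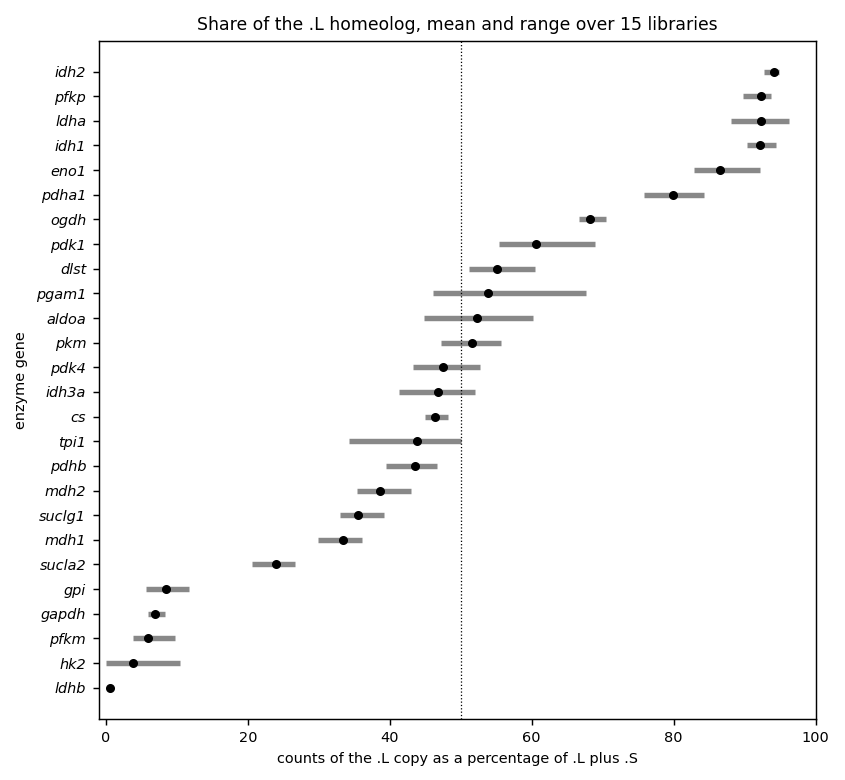
Counts of the .L copy as a percentage of .L plus .S for the 26 enzyme genes with both rows, with the mean (point) and range (bar) over 15 libraries and a dotted line at 50%. Genes lie between 0.505% (ldhb) and 94.2% (idh2), and most bars stay on 1 side of the line.

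In no comparison did a member pass the threshold, an adjusted p-value under 0.05 by edgeR's quasi-likelihood test over all genes. DESeq2 and limma-voom called no member either. In the overall test of any difference among the 5 groups, 0 of 60 members were called, against 0.0208% of all genes, and 2 had an unadjusted p-value under 0.05 (6.48% of all genes). These were pdk4.S and aldoc.L, with edgeR adjusted p-values of 0.740 and 0.768. Fold changes of the members were known to moderate precision. In the comparisons with Ctrl, 55 to 57 of the 60 intervals at 95% confidence lay within a 2-fold change in either direction, against 72.9% to 75.9% of intervals over all genes. The rows with wider intervals in at least 1 of them were gpi.L, ldha.S, ldhb.L, pfkm.L and pgk1, and gapdh.L, which had a mean of 82.9 CPM and a wide spread between replicates. Within 0.5 on the log2 scale lay only 25 to 35 of the 60 intervals in the comparisons with Ctrl. Members and all genes were not matched for level. The 4 comparisons with Ctrl share the same Ctrl libraries, so their values are set side by side and are not independent.

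Directly after the extract, the median log2 fold change of the members against Ctrl was -0.06, with 14 of 60 above 0 (52.9% of all genes), beside a median of 0.01 over all genes. No member was called (0% of all genes), none had an unadjusted p-value under 0.05 (4.53% of all genes), and none was without overlap between the groups (7.62% of all genes). The smallest p-value was that of pdk4.S, a pyruvate dehydrogenase kinase that in mammals is induced by fasting. Its level was 20.2, 16.5 and 19.1 CPM in Ctrl and 17.9, 22.6 and 24.6 CPM in extract 0 h. The groups overlapped, with a log2 fold change of 0.22 (standard error 0.122, edgeR adjusted p = 1.000). Next came idh1.S and pgam1.L, with log2 fold changes of -0.25 and -0.24. The median over the members was -0.14 without Ctrl replicate 3 and 0.03 without Ctrl replicate 2. With 3 surrogate variables as covariates it was 0.08. Its sign therefore depended on Ctrl replicate 2 and on the treatment of variation shared between libraries.

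At 4 h after the extract, the median over the members was -0.10, with 14 of 60 above 0 (50.1% of all genes). None was called (0% of all genes), 3 had an unadjusted p-value under 0.05 (7.27% of all genes) and 3 showed no overlap with Ctrl (11.7% of all genes). The level of pdk4.S was 24.5, 24.6 and 23.5 CPM against 20.2, 16.5 and 19.1 CPM in Ctrl. Every extract 4 h library lay above every Ctrl library, with a log2 fold change of 0.38 (standard error 0.121, 95% interval 0.12 to 0.64), but the edgeR adjusted p was 0.644. The cytosolic isocitrate dehydrogenase copy idh1.S was at 17.8, 18.1 and 16.6 CPM against 22.4, 27.1 and 21.0 CPM. Its groups did not overlap either, with all extract libraries lower, a log2 fold change of -0.43 (standard error 0.175) and an edgeR adjusted p of 0.661. For phosphoglycerate mutase, pgam1.L was at 5.36, 6.25 and 8.38 CPM against 6.68, 10.7 and 10.3 CPM in Ctrl, with overlap and a log2 fold change of -0.47 (standard error 0.192, edgeR adjusted p = 0.661). The third member without overlap was pfkm.S, lower in the extract group. The other copies of pdk4, idh1 and pgam1 overlapped Ctrl. Group means in extract 4 h and Ctrl were 21.0 and 18.3 CPM for pdk4.L, and 224 and 236 CPM for idh1.L. For pgam1.S they were 6.54 and 6.87 CPM. The median over the members was -0.05 without Ctrl replicate 2, -0.19 without Ctrl replicate 3 and -0.21 without extract 4 h replicate 3. With surrogate variables as covariates it was 0.07, the opposite sign.

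**Figure D4:**
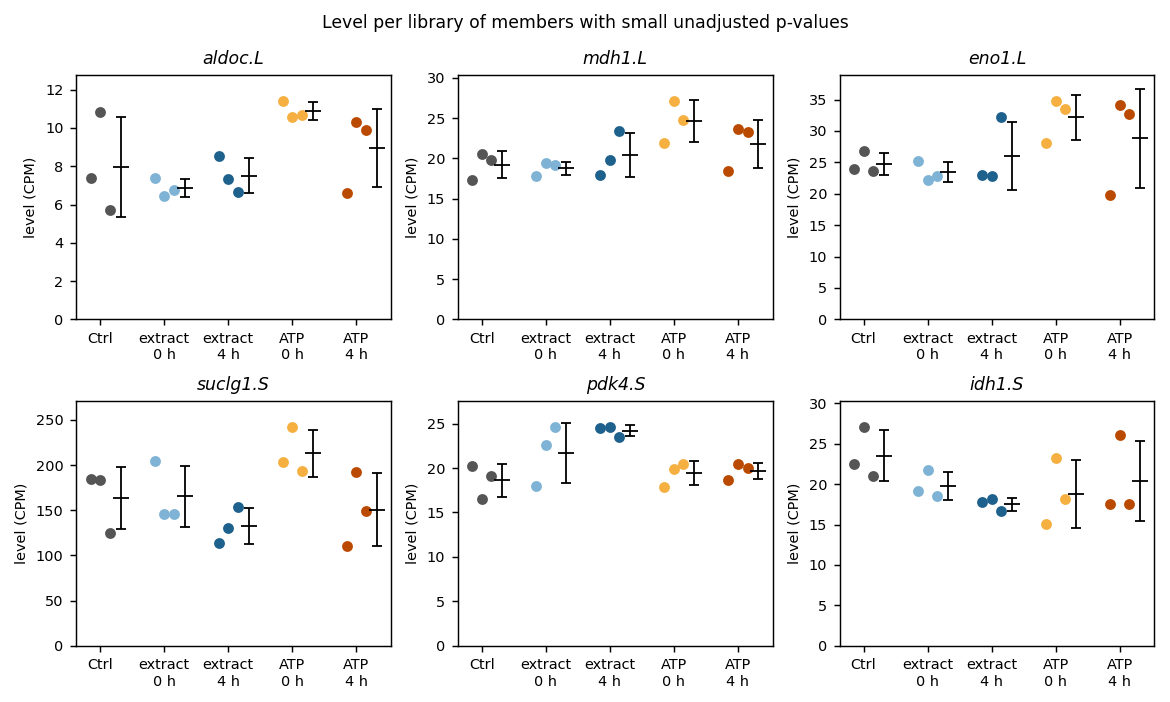
Level in CPM of members with small unadjusted p-values in every library (points, 3 per group) with group mean and SD (bar). The 3 ATP 0 h libraries lie above the 3 extract 0 h libraries for aldoc.L, mdh1.L and eno1.L, and the 3 extract 4 h libraries above Ctrl for pdk4.S and below it for idh1.S; none passed the threshold over all genes.

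Directly after ATP the members leaned the other way. The median log2 fold change against Ctrl was 0.15, with 51 of 60 above 0 (50.6% of all genes) and a median of 0.00 over all genes. By library, the members' median deviation was 0.08, 0.25 and 0.12 in ATP 0 h and 0.01, 0.19 and -0.16 in Ctrl. The groups overlapped, but each ATP 0 h library lay above the Ctrl library of the same replicate number. Members share these libraries, so counts of members above 0 are not independent observations. None was called (0% of all genes), 1 had an unadjusted p-value under 0.05 (3.58% of all genes) and 5 showed no overlap (9.22% of all genes). By step, 22 of 24 rows of the cycle, 8 of 9 of pyruvate dehydrogenase and its kinases, 8 of 10 from triose to pyruvate, 10 of 13 of hexose entry and 3 of 4 of lactate dehydrogenase had values above 0. The medians of the steps were 0.17, 0.15, 0.23, 0.14 and 0.15 in that order. The median over the members was 0.08 without Ctrl replicate 3 and 0.21 without Ctrl replicate 2, the extremes when single libraries were dropped, and 0.10 without ATP 0 h replicate 2. Other lists had values above 0 as well: 25 of 29 rows of other citric acid cycle and pyruvate enzymes (median 0.14), 12 of 12 multiciliated cell markers (0.19), 11 of 15 epidermis markers (0.13) and 7 of 9 goblet and small secretory cell markers (0.10). Muscle markers had 0 of 11 above 0 (-1.48). The part of these cell types in the members' values was not tested.

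The smallest p-value after ATP was that of mdh1.L, the cytosolic malate dehydrogenase of the malate-aspartate shuttle. Its level was 21.9, 27.15 and 24.8 CPM in ATP 0 h and 17.3, 20.6 and 19.8 CPM in Ctrl. Each ATP library lay above each Ctrl library, with a log2 fold change of 0.35 (standard error 0.131, 95% interval 0.08 to 0.63) and an edgeR adjusted p of 0.984. The 5 rows without overlap were mdh1.L, eno1.L, suclg1.S and dlst.S, higher, and hk1.L, lower. Enolase eno1.L was at 28.1, 34.8 and 33.5 CPM against 23.9, 26.8 and 23.6 CPM, a log2 fold change of 0.37 (standard error 0.182). Aldolase aldoc.L was at 11.4, 10.6 and 10.7 CPM against 7.40, 10.8 and 5.69 CPM, where Ctrl replicate 2 reached the ATP group.

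At 4 h after ATP the median over the members was 0.03, with 31 of 60 above 0 (50.6% of all genes). None was called (0.00416% of all genes), none had an unadjusted p-value under 0.05 (3.29% of all genes) and 2 showed no overlap (8.26% of all genes). The ATP 4 h group was the most divided: without its replicate 1 the median was 0.10, and without its replicate 2 it was -0.10. The smallest p-value was that of pfkm.L, the muscle-type phosphofructokinase in mammals. Its level was 0.638, 0.573 and 0.796 CPM against 0.327, 0.537 and 0.401 CPM in Ctrl, without overlap, and rested on few reads (log2 fold change 0.63, standard error 0.382, edgeR adjusted p = 1.000). This copy held 5.96% of the pfkm counts on average. The other copy, pfkm.S, was not higher, with group means of 8.36 CPM in ATP 4 h and 8.74 CPM in Ctrl. Muscle markers summed to 162 to 364 CPM in ATP 4 h and 27.6 to 279 CPM in Ctrl, and their part in the level of pfkm.L was not tested. The A subunit gene ldha.L was at 5.97, 8.12 and 5.82 CPM against 8.70, 9.04 and 6.97 CPM, and pdk1.S at 3.62, 6.51 and 5.05 CPM against 7.36, 6.71 and 4.76 CPM, both with overlap.

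Between 0 h and 4 h after the extract, the median over the members was -0.04 with 24 of 60 above 0 (49.5% of all genes). None was called (0% of all genes) and none had an unadjusted p-value under 0.05 (2.37% of all genes), while 4 showed no overlap (7.06% of all genes). The smallest p-value was that of suclg1.S, the alpha subunit shared by both forms of succinyl-CoA synthetase. Its level was 204, 146 and 145 CPM at 0 h and 113, 129.98 and 153 CPM at 4 h, with overlap and a log2 fold change of -0.32 (standard error 0.210). Pyruvate kinase pkm.S was at 31.7, 27.6 and 20.7 CPM and then 22.1, 22.2 and 24.8 CPM. Without extract 0 h replicate 1 the median over the members was 0.02, and without extract 4 h replicate 3 it was -0.11, so its sign depended on single libraries. Hexokinase hk2.S was at 7.80, 6.31 and 8.49 CPM and then 8.11, 7.13 and 13.8 CPM, where replicate 3 alone was high at 4 h.

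Between 0 h and 4 h after ATP, the median over the members was -0.17 with 11 of 60 above 0 (49.7% of all genes). None was called (0.0125% of all genes), 2 had an unadjusted p-value under 0.05 (8.84% of all genes) and 7 showed no overlap (14.3% of all genes). Here too the members had suclg1.S in front, at 203, 242 and 193 CPM at 0 h and 111, 192 and 149 CPM at 4 h. The times did not overlap, with a log2 fold change of -0.50 (standard error 0.210, 95% interval -0.95 to -0.05) and an edgeR adjusted p of 0.549. Pyruvate dehydrogenase kinase pdk1.S was at 6.06, 7.34 and 7.62 CPM and then 3.62, 6.51 and 5.05 CPM, with overlap. The regulatory isocitrate dehydrogenase subunit idh3b.S was at 28.1, 28.8 and 28.9 CPM and then 17.5, 26.0 and 22.3 CPM, without overlap, at a log2 fold change of -0.38 (standard error 0.182, edgeR adjusted p = 0.567). Without ATP 4 h replicate 1 the median over the members was -0.02, against -0.17 with it, and without ATP 0 h replicate 2 it was -0.09. It was -0.26 without ATP 4 h replicate 2. For suclg1.S the log2 fold change was -0.30 without ATP 4 h replicate 1 and -0.72 without ATP 4 h replicate 2. Without ATP 4 h replicate 1 it was -0.25 for pdk1.S and -0.22 for idh3b.S.

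Averaged over both stimuli, the 6 libraries at 4 h had a median log2 fold change of -0.11 against the 6 at 0 h, with 15 of 60 members above 0 (49.6% of all genes). None was called (0.0582% of all genes), 2 had an unadjusted p-value under 0.05 (9.75% of all genes) and none was free of overlap (0.553% of all genes). For suclg1.S the log2 fold change was -0.41 (standard error 0.148, 95% interval -0.73 to -0.10, edgeR adjusted p = 0.451). For pdk1.S it was -0.35 and for idh3b.S -0.27, with adjusted p-values of 0.499 and 0.515. The median over the members was -0.03 without ATP 4 h replicate 1, where suclg1.S was at -0.31, pdk1.S at -0.23 and idh3b.S at -0.19. Without ATP 4 h replicate 2 the median was -0.15.

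Extract 0 h minus ATP 0 h had a median log2 fold change of -0.22, with 7 of 60 above 0 (48.7% of all genes) and a median of -0.01 over all genes. No member was called (0% of all genes). Unadjusted, 6 members had a p-value under 0.05, all lower after the extract, where 5.2% of all genes reached it and 1.88% did so with a lower level. The groups did not overlap in 12 of 60 members (20%), against 14.6% of all genes without overlap in either direction. All 12 were lower after the extract, against 6.86% of all genes lower without overlap. By step, all 10 rows from triose to pyruvate and 23 of 24 rows of the cycle had values under 0. Values under 0 were also frequent in other lists: 25 of 29 rows of other citric acid cycle and pyruvate enzymes (median -0.17), 14 of 15 of the pentose phosphate pathway (-0.16), 9 of 9 goblet and small secretory cell markers (-0.18) and 11 of 11 muscle markers (-1.80). Multiciliated cell markers had 9 of 12 (-0.08) and epidermis markers 8 of 15 (-0.05). Their part in the members' values was not tested.

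In that comparison aldoc.L was at 7.38, 6.44 and 6.78 CPM after the extract and 11.4, 10.6 and 10.7 CPM after ATP. The groups were far apart relative to their spread, with a log2 fold change of -0.66 (standard error 0.210, 95% interval -1.11 to -0.22), and the edgeR adjusted p was 0.742. For mdh1.L the levels were 17.9, 19.4 and 19.1 CPM and 21.9, 27.15 and 24.8 CPM, a log2 fold change of -0.39 (standard error 0.132). For eno1.L they were 25.2, 22.2 and 22.9 CPM and 28.1, 34.8 and 33.5 CPM, a log2 fold change of -0.46 (standard error 0.183), with the same adjusted p for both. The remaining 3 members under an unadjusted 0.05 were pdhb.S, pdhb.L and dlst.L, of the pyruvate and 2-oxoglutarate dehydrogenase complexes. The median over the members was -0.17 without ATP 0 h replicate 2 and -0.28 without ATP 0 h replicate 1. It was 0.01 with 3 surrogate variables as covariates and -0.08 in the authors' surrogate-adjusted table, so the lean depended on how variation shared between libraries was treated.

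At 4 h the extract group had a median of -0.13 against the ATP group, with 9 of 60 members above 0 (52.7% of all genes). None was called (0% of all genes), 1 had an unadjusted p-value under 0.05 (4.28% of all genes) and 2 showed no overlap (9.17% of all genes). This was pdk4.S, at 24.5, 24.6 and 23.5 CPM against 18.7, 20.4 and 20.04 CPM after ATP. All extract libraries were higher, with a log2 fold change of 0.30 (standard error 0.120, edgeR adjusted p = 1.000). Its homeolog pdk4.L was at 24.0, 21.0 and 17.9 CPM against 17.1, 18.0 and 17.7 CPM, and pgam1.L at 5.36, 6.25 and 8.38 CPM against 7.19, 9.06 and 8.69 CPM. Without ATP 4 h replicate 2 the median over the members was -0.03, and without its replicate 1 it was -0.24. With surrogate variables as covariates it was 0.03.

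Whether the change with time differed between the stimuli was tested as an interaction. No member was called (0% of all genes) and none had an unadjusted p-value under 0.05 (1.37% of all genes). The smallest p-values were those of mdh1.L, aldoc.L and gpi.S, with log2 differences of -0.30, -0.41 and -0.32 and edgeR adjusted p-values of 1.000. For gpi.S the levels were 15.6, 16.3 and 12.5 CPM at 0 h and 14.2, 13.9 and 16.2 CPM at 4 h after the extract. After ATP they were 18.2, 20.9 and 17.04 CPM and then 13.4, 18.7 and 12.3 CPM. The median over the members was -0.11, with 16 of 60 above 0 (49.2% of all genes). It was 0.01 without ATP 4 h replicate 1 and -0.19 without ATP 4 h replicate 2.

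**Figure D5:**
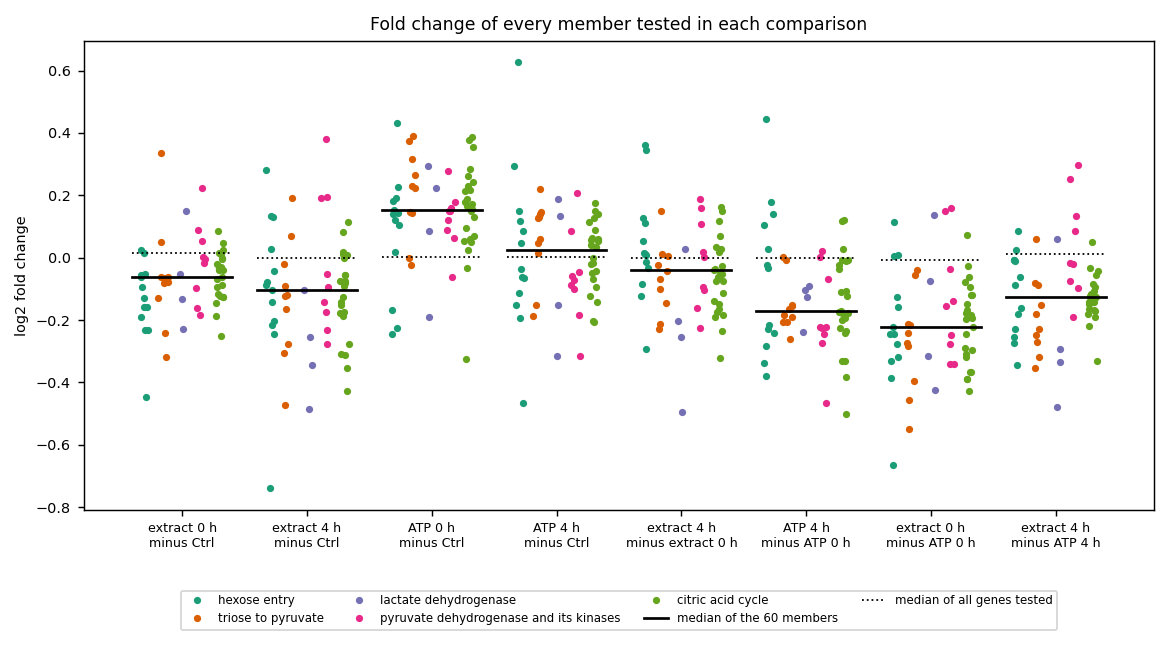
Log2 fold change of each of the 60 tested members (points, coloured by step) in 8 comparisons, with the median of the members (solid line) and of all genes tested (dotted line). The median of the members is 0.15 in ATP 0 h minus Ctrl and -0.22 in extract 0 h minus ATP 0 h; no point passed the threshold.

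Calls differed where variation shared between libraries was removed. With 3 surrogate variables as covariates in edgeR, suclg1.L was called in ATP 0 h minus Ctrl, as a higher level after ATP, where 0.0998% of all genes were called. It was also the only member called in the overall test, against 1% of all genes. In limma fits of the authors' deposited table of adjusted values, 5 of 61 members were called in ATP 0 h minus Ctrl (1.92% of all genes), with ldhb.S, mdh1.L, suclg1.L and suclg1.S higher and idh1.S lower. In ATP 4 h minus ATP 0 h, 5 were called, all lower (6.32% of all genes), namely gpi.S, idh3b.S, idh3g.S and both suclg1 copies. In extract 4 h minus Ctrl, 2 were called (6.44% of all genes), pdk4.S higher and idh1.S lower. The averaged comparison of 4 h with 0 h had 6 (9.05% of all genes), extract 4 h minus extract 0 h 1 (1.02%), extract 4 h minus ATP 4 h 1 (3.42%) and the overall test 10 (14.2%). These fits take no account of the degrees of freedom that the adjustment had used.

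Of 25 pairs with both copies tested, the fold changes of the copies had the same sign in 14 pairs in ATP 4 h minus Ctrl, 7 of them above 0, and in 17 pairs in ATP 0 h minus Ctrl, all 17 above 0. In ATP 4 h minus ATP 0 h they did so in 23 pairs, 20 of them below 0, and in extract 0 h minus ATP 0 h in 21 pairs, 20 of them below 0. The median difference between copies was 0.06 to 0.13 on the log2 scale over all comparisons. In extract 4 h minus extract 0 h, where 24 of 60 members lay above 0, the sign was the same in 21 pairs, 14 of them below 0. Copies share reads and libraries, and most members lay on 1 side of 0 in several comparisons. Whether copies agreed more than other members was not tested. The median biological coefficient of variation was 0.148 over the members and 0.162 over all genes tested, which were not matched for level. It is taken gene by gene, so it does not show shifts that members share.

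Neighbouring pathways were read from lists of other genes. No gene was called in the overall test among 14 tested rows of other glycolytic isozymes, 29 of other citric acid cycle and pyruvate enzymes, 14 of glucose and monocarboxylate transporters, or 19 of gluconeogenesis and glycogen. The same held for 15 rows of the pentose phosphate pathway, 34 of regulators of glycolysis, 28 of hypoxia-responsive genes and 15 of the malate-aspartate shuttle and glutamine entry. At an unadjusted p-value under 0.05 these lists held 1, 0, 0, 2, 0, 2, 5 and 0 rows, against 6.48% of all genes. Their medians against Ctrl lay between -0.10 and 0.14 over all 4 comparisons. Rows of gluconeogenesis were well covered, with means of 567 CPM for fbp1.L (fructose-1,6-bisphosphatase), 484 CPM for pck1.L and 703 CPM for pck2.L (phosphoenolpyruvate carboxykinases).

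Outside the pentose phosphate pathway, the row with the smallest overall p-value of each list was sdhb.S, slc16a3.S, got1.S, myc.L, pgam2.L, pygb.L or angptl4.S, with edgeR adjusted p-values from 0.156 to 0.812. For pygb.L, a glycogen phosphorylase, the level was 1.11, 2.10 and 0.561 CPM in Ctrl. It was 0.123, 0.179 and 0.181 CPM in extract 0 h and 0.413, 0.362 and 0.131 CPM in extract 4 h. After ATP it was 0.0539, 0.938 and 0.389 CPM at 0 h and 2.49, 2.71 and 1.71 CPM at 4 h. For pgam2.L, the muscle form of phosphoglycerate mutase, all 3 extract 0 h libraries and ATP 0 h replicate 1 were at 0. Its highest level was 1.30 CPM in Ctrl replicate 2. Summed muscle markers had their lowest group values in extract 0 h and their highest in ATP 4 h, and their part in both rows was not tested. All 11 tested rows of muscle markers had an unadjusted p-value under 0.05 in the overall test and none was called.

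In 1 case a gene of these lists passed the threshold. The hypoxia-responsive list holds angptl4.S, a secreted lipase inhibitor, which was called in the averaged comparison of 4 h with 0 h (log2 fold change 0.52, standard error 0.0785, edgeR adjusted p = 0.0201), where 0.0582% of all genes were called. Its level was 16.97, 18.8 and 18.5 CPM at extract 0 h and 26.5, 28.1 and 29.5 CPM at extract 4 h. It was 17.7, 16.2 and 20.6 CPM at ATP 0 h and 22.7, 22.8 and 26.6 CPM at ATP 4 h. The 4 h libraries lay above the 0 h libraries after both stimuli, with log2 fold changes of 0.63 after the extract and 0.40 after ATP. In the same comparison pdk1.S, a member that the hypoxia-responsive list also holds, had a log2 fold change of -0.35. The malate-aspartate shuttle and citric acid cycle rows got1.S and sdhb.S (succinate dehydrogenase) had values of -0.41 and -0.46 in ATP 4 h minus ATP 0 h, with edgeR adjusted p-values of 0.558 and 0.549.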

How the data were processed

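RNA sequencing libraries were made from total RNA depleted of ribosomal RNA and read as single ends of 75 nt, per the labels' protocols. The authors deposited expected counts of RSEM for each gene, per the file headers; the submitters' processing notes also name fastp, STAR and limma, and the genome build is not given in the sources used here. Of the expected counts, 69.1% were whole within a tolerance of 1e-09. The authors also deposited log2 CPM adjusted for surrogate variables for 28009 genes, per the file headers, used only as an alternative.

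Expected counts were rounded to whole numbers, filtered with filterByExpr, scaled by TMM and fitted with edgeR 4.0.16 (R 4.3.3, quasi-likelihood, robust) with 1 coefficient per group over all 15 libraries. P-values were two-sided and adjusted by the Benjamini-Hochberg method over 24052 genes, with a threshold of 0.05. Standard errors were derived from the fold change and its F statistic. The code was tested on simulated data. Levels are expected counts per 1000000 on the TMM-scaled library sizes of the filtered table (CPM). Alternatives used DESeq2 1.42.0, limma 3.58.1 and sva 3.50.0. A list of 375 ribosomal RNA rows came from the RefSeq table of Xenopus_laevis_v10.1, to which 40077 symbols matched. Only the columns of these 15 libraries were used.

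Members and lists were chosen with earlier results of these data known. Members named are the 3 smallest p-values of each comparison, the row with the highest mean of each step and any called row; of each other list, the row with the smallest overall p-value and any called row. The gluconeogenic rows, gapdh.L and the rows without overlap were named after their values were seen. Same-numbered libraries deviated together, with each correlation above 0.1, in 5 of 10 pairs of groups (those of Ctrl except with extract 4 h, and those of ATP 0 h except with extract 4 h), and the numbers, which come from the titles, were taken to pair those groups. The row of the pentose phosphate list is not reported here. Levels per transcript length and promoter motifs were not analysed here.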

Additional observations from a re-analysis of the deposited data

How the results depend on the processing

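The count of 0 members called held in every comparison with the replicate number as a block, in DESeq2, in limma-voom, with RLE size factors, without the filter, with homeologs summed, with only the groups compared, with extract 4 h replicates 1 and 2 summed, with ribosomal RNA genes removed, and whichever of the 15 libraries was dropped (0 to 0). With the replicate block 0 members were called in each comparison, so the pairing changed no call. With 3 surrogate variables 1 member, suclg1.L, was called in ATP 0 h minus Ctrl and 1 in the overall test (0.0998% and 1% of all genes). In the authors' adjusted table limma called 2 members in extract 4 h minus Ctrl, 5 in ATP 0 h minus Ctrl, 1 in extract 4 h minus extract 0 h, 5 in ATP 4 h minus ATP 0 h, 6 averaged over both stimuli, 1 in extract 4 h minus ATP 4 h and 10 in the overall test. The shares of all genes called there were 6.44%, 1.92%, 1.02%, 6.32%, 9.05%, 3.42% and 14.2%. That fit takes no account of the degrees of freedom used by the adjustment. The 3 members with the smallest p-values of each comparison kept their direction in every alternative fit of that comparison that held them. The overall test has no direction, and the direction of rows named for other reasons was not checked. Depth limits pgk1, pfkm.L, ldha.S and hk2.L, which had means under 1 CPM. Shares per transcript length were not run, since no lengths were used here.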
